A study of Mus musculus with 24 samples.

Results

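The genes described here are 8 genes of hepatic fatty acid oxidation and the fasting response, followed in mouse liver cultures. They are Ppara, Cpt1a, Cpt2, Acadm, Acadl, Hadha, Ehhadh and Fgf21, and they were taken by symbol. Each symbol had exactly 1 row among the 31053 rows of the hepatocyte table, the 25876 rows of the cholangiocyte table and the 20729 rows of the Smart-Seq table. Levels are given in FPKM as deposited, that is, fragments scaled to gene length and to library size, and each table was normalized on its own.

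The cultures came from wild-type adult BALB/c mice aged 6 to 8 weeks, and all groups share this background. The hepatocyte table holds 3 libraries of primary hepatocytes (Pri-Hep), purified on a density gradient with removal of EpCAM+ cells, and 3 libraries each of hepatocyte organoids (Hep-Orgs) at passages P1, P5 and P10. These Hep-Orgs grew in Matrigel in a hepatocyte medium with DAPT, which inhibits Notch signalling, and dexamethasone. Organoids of cholangiocytes (Cho-Orgs), grown from EpCAM+ cells in a medium with forskolin and Wnt3a, make up the cholangiocyte table, again with 3 libraries for each of the passages P0, P5 and P10. The Smart-Seq table holds 1 library each of Hep-Orgs at P0 that were grape-like, intermediate or round-like in shape, from cultures in the hepatocyte medium without these additions, as far as the study tells.

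Fatty acids enter mitochondria as carnitine esters and are then shortened by repeated cycles of beta-oxidation, and in the fasting liver the resulting acetyl-CoA feeds ketone body synthesis. Peroxisomes run a related pathway for very long-chain and dicarboxylic acids. The nuclear receptor PPAR alpha, encoded by Ppara, acts with RXR as the main transcriptional activator of these genes in hepatocytes, and Fgf21 encodes a hormone that the liver releases on fasting and on cellular stress.

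Sequencing depth was 14068906 to 27160365 recovered fragments per library in the hepatocyte table. The Cho-Orgs libraries were estimated to hold 37460000 to 39920000 fragments, and the Smart-Seq libraries 40030000 to 40390000. The tissue labels were checked against 10 hepatocyte and 10 cholangiocyte markers. In the libraries labelled Pri-Hep the summed hepatocyte markers were 604 to 637 FPKM and the summed cholangiocyte markers 3939 to 4033 FPKM, with Alb at 112, Krt19 at 237 and Epcam at 269 FPKM on average. Apoa2 and Serpina1c were at 0 in all 3 of them. The Hep-Orgs libraries had 617 to 665 and 3889 to 4104 FPKM for the same sums, so the libraries labelled Pri-Hep did not stand apart from them. These sums went against a hepatocyte label in the Pri-Hep and the Hep-Orgs libraries alike, and both are named here by their labels. In the Cho-Orgs the hepatocyte sum was 7182 to 8000 FPKM at P0, 204 to 250 at P5 and 77.9 to 83.4 at P10. The cholangiocyte sum there was 5202 to 6622 FPKM at P0, 3663 to 3788 at P5 and 3438 to 3466 at P10. At P0 the hepatocyte sum was thus the larger, which went against the cholangiocyte label, and the Cho-Orgs too are named by their labels.

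The promoter sequence of the gene with the most divergent course, Fgf21, is shown first, with short stretches from Cpt1a and Acadm. The RefSeq windows (GRCm38.p6) span 250 bases before to 50 bases after each gene start, and all 8 genes matched 1 window each. Capitals mark TTGCATCA, the core of the amino acid response element to which ATF4 binds, in Fgf21, and the reverse complement of AGGTCA, the hexamer that PPAR and RXR recognise as a repeat, in the other 2.

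Fgf21, chr7:45615491-45615740, minus strand: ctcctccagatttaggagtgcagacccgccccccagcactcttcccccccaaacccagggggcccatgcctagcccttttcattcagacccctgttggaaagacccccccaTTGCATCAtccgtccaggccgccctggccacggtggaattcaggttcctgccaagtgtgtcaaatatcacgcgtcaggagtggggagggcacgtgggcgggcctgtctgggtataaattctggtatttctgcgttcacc
Cpt1a, chr19:3323167-3323252, plus strand: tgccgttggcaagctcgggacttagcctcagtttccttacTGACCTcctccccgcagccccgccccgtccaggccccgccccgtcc
Acadm, chr3:153944847-153944893, minus strand: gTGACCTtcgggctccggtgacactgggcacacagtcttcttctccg

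In Fgf21 the marked bases lay 139 to 132 bases before the start. Of all 32851 windows, on either strand, 294 held TTGCATCA, or 0.895%, and Fgf21 was the 1 gene of the 8 among them. The AGGTCA hexamer was in 16.3% of windows, and of the 8 genes in Cpt1a, at 94 to 89 bases before the start, and in Acadm, at 249 to 244 bases. A direct repeat of this hexamer with 1 base between was in 13 windows, or 0.0396%, and no window of the 8 genes was among them. A match describes letters in a window and does not show binding.

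Ppara lies on chromosome 15 from 85734983 to 85802819 on the plus strand (mm10, as the hepatocyte table lists it). In the Cho-Orgs its levels were 0.721, 0.871 and 1.27 FPKM in the P0 libraries. They were 0.226, 0.256 and 0.368 FPKM at P5 and 0.274, 0.222 and 0.248 FPKM at P10. Every P0 library thus lay above every later library, and P5 and P10 overlapped. Tests were made with limma on log2(FPKM + 1) over genes with at least 1 FPKM in at least 3 libraries, with p-values adjusted over all genes of the table. Ppara did not reach that filter in the Cho-Orgs. When all genes above 0 were tested instead, Ppara was lower at P5 than at P0 by a log2 fold change of -0.60 (SE 0.10, adjusted p = 0.00224) and at P10 by -0.64 (SE 0.10, adjusted p = 0.000925). Between P10 and P5 its log2 fold change was -0.04 (SE 0.10, adjusted p = 0.838).

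**Figure D1:**
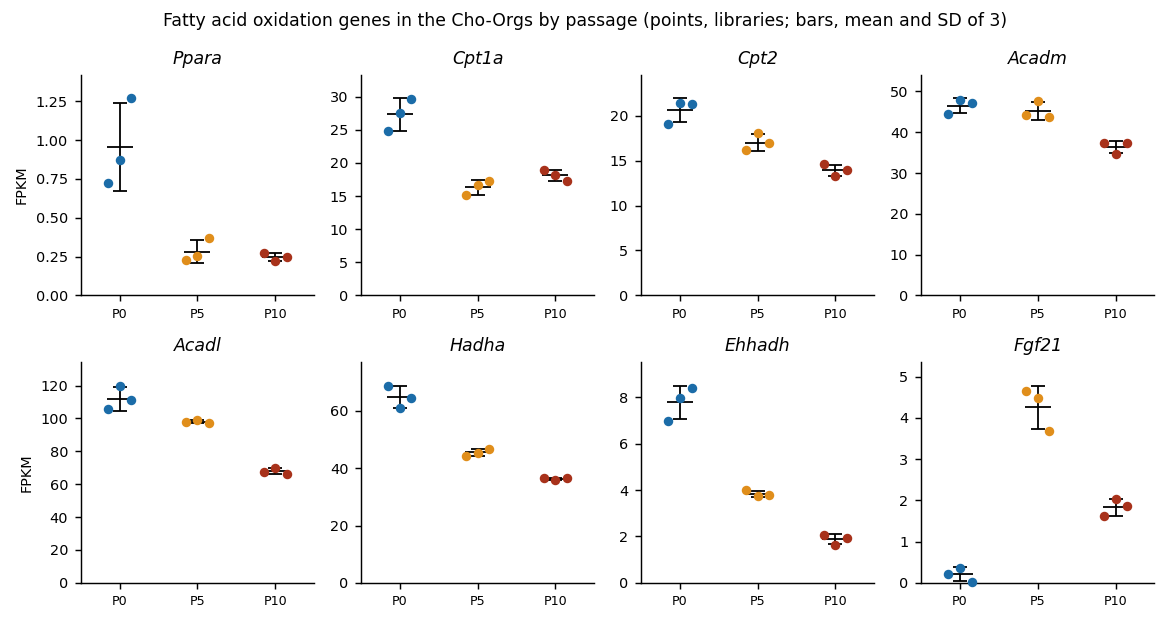
FPKM of the 8 genes in the 9 Cho-Orgs libraries by passage, with points for libraries and bars for the mean and SD of 3 libraries, each panel on its own axis from 0. Ehhadh fell from a mean of 7.78 at P0 to 1.88 FPKM at P10, while Fgf21 was highest at P5, at 4.26 FPKM.

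In the Cho-Orgs as a whole, the oxidation enzymes fell with passage and Fgf21 rose. From P0 to P10, 6 of the 7 genes tested were lower and Fgf21 was higher, against 31.3% of all 11593 genes tested lower and 41% higher. From P0 to P5, 5 of 7 were lower and 1 higher, against 22.6% lower and 34% higher of all genes. From P5 to P10, 6 of 7, Fgf21 among them, were lower and 0 higher, against 30.5% and 31%. The 3 comparisons share libraries and are not independent of each other. The median log2 fold changes over the 7 genes were -0.26 at P5 against P0, -0.57 at P10 against P0 and -0.32 at P10 against P5, where those over all genes were 0.06, 0.07 and 0.01. Fgf21 passed the filter only through the groups where it is high, so its call was part of its selection. With median-ratio scaling, 47.2% rather than 60% of the calls at P5 against P0 were higher, and the same number of the 8 genes was called.

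Most of the hepatocyte markers fell as well. Of 9 hepatocyte markers tested, 8 were lower at P10 than at P0 and 5 were lower at P10 than at P5, against 31.3% and 30.5% of all genes. Apoa2, Serpina1c and Cps1 passed the filter only through P0, so their calls against P0 were part of their selection. Alb, the main plasma protein made by hepatocytes, was at 4994 ± 406 FPKM at P0, 79.5 ± 12.4 at P5 and 0.584 ± 0.0579 at P10 (SD, n = 3). Hnf4a changed little, at 64.3, 60.9 and 56.4 FPKM on average. Of 10 cholangiocyte markers tested, 5 were lower and 4 higher at P10 than at P0, against 31.3% and 41% of all genes. The 10 stellate and mesenchymal markers summed to 64.6 to 79.4 FPKM at P0 and 0.174 to 0.239 at P10. Reln, at 69.2 FPKM on average, made up most of the P0 sum, and 8 of the 10 were under 1 FPKM there. The 2 that could be tested, Reln and Rgs5, were both lower at P10, but Rgs5 passed the filter only through P0. The 10 macrophage markers summed to 43.5 to 48.9 FPKM at P0, 72.1 to 77.3 at P5 and 10.1 to 10.5 at P10. The sum followed Cd68, at 30.4, 74.5 and 9.53 FPKM on average, whereas Lyz2 was at 13.2 FPKM at P0 and listed at 0 at P5 and P10, and 7 of the 10 markers were at 0 at P5, with Clec4f and Vsig4 at 0 throughout. The part of these cells in the changes of the 8 genes was not tested, and in bulk libraries fewer cells of a type and less RNA per cell cannot be told apart.

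Cpt1a encodes the liver form of carnitine palmitoyltransferase 1, the rate-limiting step of fatty acid entry into mitochondria, and lies on chromosome 19 from 3323301 to 3385732 on the plus strand. Its levels were 24.8, 27.5 and 29.7 FPKM at P0, 15.1, 16.6 and 17.2 FPKM at P5 and 18.9, 18.2 and 17.3 FPKM at P10. All P0 libraries were above all later ones, and the P10 libraries were just above the P5 libraries. The log2 fold change of Cpt1a was -0.71 at P5 against P0 (SE 0.07, adjusted p = 3.72e-05) and -0.57 at P10 against P0 (SE 0.07, adjusted p = 7.61e-05). The difference of 0.14 between P10 and P5 did not pass the test (SE 0.07, adjusted p = 0.121). Of the enzymes among the 8 genes, Cpt1a was the 1 whose P10 level did not lie below its P5 level.

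Cpt2 encodes the enzyme of the inner mitochondrial membrane that turns acylcarnitines back into acyl-CoA (chromosome 4, 107903981 to 107923610, minus strand). It was at 19.1, 21.4 and 21.3 FPKM at P0, 16.2, 18.1 and 16.9 FPKM at P5 and 14.6, 13.3 and 13.9 FPKM at P10. The passages formed 3 steps without overlap. The log2 fold changes were -0.26 at P5 against P0 (SE 0.06, adjusted p = 0.00653), -0.53 at P10 against P0 (SE 0.06, adjusted p = 4.01e-05) and -0.27 at P10 against P5 (SE 0.06, adjusted p = 0.0044). Both of the smaller changes depended on single libraries: without replicate 3 the adjusted p was 0.105 at P5 against P0, and without replicate 2 or replicate 3 it was 0.0571 or 0.056 at P10 against P5. Within a library, Cpt1a stood at 1.28 to 1.4 times the level of Cpt2 at P0, at 0.92 to 1.02 times at P5 and at 1.24 to 1.36 times at P10.

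Acadl and Acadm encode the long-chain and medium-chain acyl-CoA dehydrogenases, which take the first step of each mitochondrial cycle. Acadl (chromosome 1, 66830839 to 66863277, minus strand) was the most abundant of the 8 genes in every group of every table. In the Cho-Orgs it was at 106, 120 and 111 FPKM at P0, 97.7, 99.2 and 97.1 FPKM at P5 and 67.4, 69.8 and 66.3 FPKM at P10. Most of its fall came between P5 and P10, where the log2 fold change was -0.52 (SE 0.05, adjusted p = 2.4e-05). From P0 to P5 it was -0.19 (SE 0.05, adjusted p = 0.0104), and this call was lost without replicate 2 (adjusted p = 0.0589) or replicate 3 (adjusted p = 0.0973). From P0 to P10 it was -0.72 (SE 0.05, adjusted p = 1.2e-06). The gene model of Acadl overlaps Gm15793 on the same strand, and the counting setting for strand is not given in the sources used here.

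Acadm (chromosome 3, 153922357 to 153944632, minus strand) had the smallest change of the enzymes from P0, at P5 and at P10. It was at 44.4, 47.8 and 47.2 FPKM at P0, 44.2, 47.6 and 43.7 FPKM at P5 and 37.3, 34.6 and 37.3 FPKM at P10. The P0 and P5 libraries overlapped, with a log2 fold change of -0.04 (SE 0.05, adjusted p = 0.561) that was 0.00 after rescaling to TPM. At P10 it was lower than at P0 by a log2 fold change of -0.34 (SE 0.05, adjusted p = 0.000287) and lower than at P5 by -0.30 (SE 0.05, adjusted p = 0.000948). The ratio of Acadl to Acadm within a library was 2.35 to 2.52 at P0, 2.08 to 2.22 at P5 and 1.78 to 2.01 at P10.

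Hadha encodes the alpha subunit of the mitochondrial trifunctional protein, which carries the hydratase and long-chain hydroxyacyl-CoA dehydrogenase steps (chromosome 5, 30118304 to 30155162, minus strand). Its levels were 68.9, 61.2 and 64.5 FPKM at P0, 44.4, 45.4 and 46.7 FPKM at P5 and 36.5, 35.9 and 36.5 FPKM at P10. The 3 passages did not overlap. The log2 fold change of Hadha was -0.50 at P5 against P0 (SE 0.05, adjusted p = 3.02e-05), -0.82 at P10 against P0 (SE 0.05, adjusted p = 3.84e-07) and -0.32 at P10 against P5 (SE 0.05, adjusted p = 0.000466). Its partner Hadhb, the beta subunit, was at 8.86 FPKM at P0 and 6.03 at P10 on average. The ratio of Hadha to Hadhb was 6.81 to 7.83 at P0 and 5.67 to 6.4 at P10 in the Cho-Orgs, and 1.39 to 1.78 over all libraries of the hepatocyte table. The hepatocyte table lists a length of 8730 bases for Hadha, where the longest coding transcript in GENCODE M21 has 4017, so its level cannot be compared between tables. Hadha also overlaps Garem2 on the other strand.

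Ehhadh encodes the peroxisomal bifunctional enzyme, a classical PPAR alpha target (chromosome 16, 21761287 to 21787807, minus strand). It was at 6.98, 7.96 and 8.41 FPKM at P0, 3.99, 3.76 and 3.78 FPKM at P5 and 2.07, 1.65 and 1.91 FPKM at P10. Its mean at P10 was 24.1% of that at P0, the lowest share of the 6 enzymes, among which the other means at P10 were 56% to 78.4% of those at P0. Its log2 fold change was -0.86 at P5 against P0 (SE 0.08, adjusted p = 1.58e-05), -1.61 at P10 against P0 (SE 0.08, adjusted p = 8.13e-08) and -0.75 at P10 against P5 (SE 0.08, adjusted p = 3.16e-05). With Ehhadh falling further than Hadha, the ratio of Hadha to Ehhadh within a library was 7.67 to 9.87 at P0, 11.1 to 12.3 at P5 and 17.6 to 21.8 at P10.

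Fgf21 (chromosome 7, 45613886 to 45615490, minus strand) went the other way. Its P0 libraries had 0.212, 0.370 and 0.027 FPKM, which is about 8, 14 and 1 fragments. At P5 it was at 4.64, 4.49 and 3.67 FPKM, and at P10 at 1.61, 2.03 and 1.86 FPKM. The passages did not overlap, with P5 highest and P10 between. Pooled over the 3 libraries of a group there were about 23 fragments at P0, 464 at P5 and 196 at P10, with 95% Poisson intervals of 14.6 to 34.5, 423 to 508 and 170 to 225 that cover counting error only. The mean FPKM was 21-fold higher at P5 and 9.02-fold higher at P10 than at P0. On the log2(FPKM + 1) scale the fold changes were 2.13 at P5 against P0 (SE 0.12, adjusted p = 5.43e-07), 1.24 at P10 against P0 (SE 0.12, adjusted p = 7.56e-06) and -0.89 at P10 against P5 (SE 0.12, adjusted p = 0.000136). With a pseudocount of 0.1 the first 2 were 4.03 and 2.86. Fgf21 passed the filter only through P5 and P10, so these 2 calls against P0 were part of its selection. With all genes above 0 tested, their adjusted p by limma was 1.76e-05 and 0.000109.

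**Figure D2:**
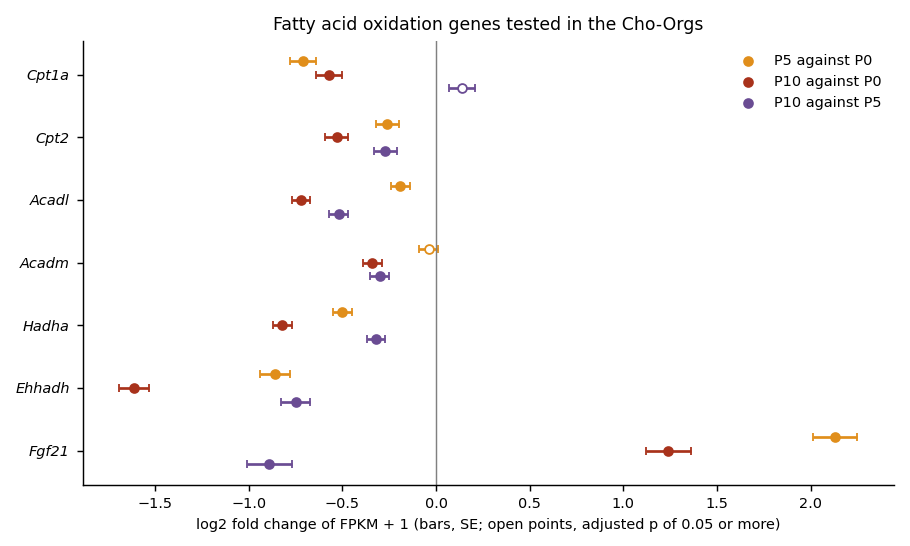
Log2 fold changes of FPKM + 1 with their SE for the 7 genes tested in the Cho-Orgs, in 3 comparisons of passages. Filled points passed an adjusted p of 0.05, and the 2 open points are Cpt1a at P10 against P5 and Acadm at P5 against P0. Fgf21 passed the filter only through P5 and P10, so its filled points against P0 were part of its selection.

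The order of the levels in the Cho-Orgs changed with these courses. At P0 the means ran from Acadl at 112 over Hadha at 64.9, Acadm at 46.5, Cpt1a at 27.3, Cpt2 at 20.6, Ehhadh at 7.78 and Ppara at 0.954 to Fgf21 at 0.203 FPKM, and no neighbours overlapped. At P5 the libraries of Hadha and Acadm overlapped, as did those of Cpt1a and Cpt2 and those of Fgf21 and Ehhadh. At P10 those of Hadha and Acadm and those of Ehhadh and Fgf21 overlapped. Among genes above 0 FPKM, Acadl lay at the 97.4 percentile at P0 and the 95.3 percentile at P10, and Ehhadh at the 69.5 and the 49.5 percentile.

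Across the 9 Cho-Orgs libraries, profiles of centred log2(FPKM + 1) were compared over all genes tested, as a description. The gene closest to Cpt1a was Rybp, with a root mean square difference of 0.074, and those closest to Cpt2 and Acadm were Foxo1 (0.049) and Enox2 (0.03). The closest to Acadl was Adi1 (0.04), to Hadha Mcf2l (0.046) and to Fgf21 Adh7 (0.17). Ehhadh was closest to Phyhd1 (0.092) and then to Dbi (0.1), an acyl-CoA binding protein gene. The second closest to Hadha was Atp5b (0.053), which encodes the beta subunit of the mitochondrial ATP synthase. None of the 8 genes was among the 2 closest to another of them. All libraries share the passage groups, so many genes have like profiles.

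The rest of the pathway was described with 9 lists of 109 listed genes outside the 8. In the Cho-Orgs 87 of them were tested. From P0 to P10, 52 were lower, 15 higher and 20 not called, with a median log2 fold change of -0.38, where 31.3% of all genes tested were lower and 41% higher. From P0 to P5, 41 were lower and 16 higher, with a median of -0.19, against 22.6% and 34% of all genes. From P5 to P10, 48 were lower and 18 higher, with a median of -0.24, against 30.5% and 31%. Of the 87 genes, 8 passed the filter through the libraries of 1 passage alone, so their calls were part of their selection. Among them were Creb3l3, Fgfr1, Fabp1, Fabp4, Slc27a2 and Plin5 at P0 and Cyp4a12a at P10. Of the other 79, 45 were lower and 14 higher at P10 than at P0. The counts of single lists from P0 to P10 that follow stand against the same 31.3% and 41%. They include the genes that passed the filter through 1 passage alone.

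Of 16 genes of mitochondrial beta-oxidation, 11 were lower at P10 than at P0, none was higher and 5 were not called. Acaa2, the last thiolase of the cycle, fell by 1.36 on the log2 scale (SE 0.05, adjusted p = 2.08e-08), from 59.3 to 22.4 FPKM. Echs1, the short-chain hydratase, fell from 128 to 57.4 FPKM (log2 fold change -1.14, adjusted p = 8.38e-08). Etfb, a subunit of the flavoprotein that takes the electrons of the dehydrogenases, fell from 85.8 to 64.1 FPKM (adjusted p = 9.24e-05). Of 5 genes of the carnitine shuttle tested, 3 were lower and 1, Cpt1c, was higher. Slc25a20, the carnitine-acylcarnitine carrier, fell from 15.7 to 8.81 FPKM (log2 fold change -0.74, adjusted p = 0.00105), and Crot, the peroxisomal carnitine octanoyltransferase, from 20.8 to 9.09 FPKM (log2 fold change -1.11, adjusted p = 1.05e-07).

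Of 15 genes of peroxisomal oxidation tested, 9 were lower at P10 than at P0 and 1 was higher. Phyh, which starts the alpha-oxidation of phytanic acid, fell from 122 to 39.7 FPKM (log2 fold change -1.59, adjusted p = 7.94e-09). Acox2, the branched-chain acyl-CoA oxidase, was the gene that rose, from 12.8 to 39.9 FPKM (log2 fold change 1.59, adjusted p = 4.03e-06). Ech1 was at 95 FPKM at P0, 133 at P5 and 91.2 at P10, and its difference between P10 and P0 did not pass the test (adjusted p = 0.438). Of the 7 listed genes of omega-oxidation 1 could be tested: Cyp4a12a was at 3.6 to 3.93 FPKM at P10, listed at 0 at P5 and at 0.103 to 0.116 FPKM at P0. Its near copy Cyp4a12b can share its fragments, so its value is uncertain. Cyp4f14, at 0.803 to 2.98 FPKM at P0 and 0.417 to 0.507 FPKM at P10, did not reach the filter.

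Of 8 genes of ketone synthesis and use tested, 7 were lower at P10 than at P0 and none was higher. Oxct1, which serves ketone use, fell from 68.2 to 36.5 FPKM (log2 fold change -0.88, adjusted p = 3e-06). The transporters Slc16a1 and Slc16a6 fell by 0.35 and 1.00 on the log2 scale (adjusted p = 0.000158 and 5.76e-07).

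Of 10 genes of fatty acid uptake and activation tested, 6 were lower and 2 higher at P10 than at P0. Among the 6, Slc27a2, Fabp1 and Fabp4 passed the filter only through P0. Dbi fell from 440 to 137 FPKM (log2 fold change -1.67, adjusted p = 1.77e-08). Acsl5, an acyl-CoA synthetase, was at 208 FPKM at P0, 311 at P5 and 171 at P10, higher at P5 than at P0 (adjusted p = 0.000181) and lower at P10 (adjusted p = 0.00848). Fabp1, the liver fatty acid binding protein, was at 7.29, 8.05 and 11.4 FPKM at P0 and listed at 0 in all P10 libraries, and Fabp4, which is known from fat cells and macrophages, at 5.2 FPKM at P0 and listed at 0 at P5 and P10.

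Of 16 partners and regulators of PPAR alpha tested, 8 were lower and 4 higher at P10 than at P0. Rxra, the main RXR of liver, fell from 21.5 to 9.77 FPKM (log2 fold change -1.06, adjusted p = 6.29e-07), while Rxrb rose from 17.6 to 29.7 FPKM (log2 fold change 0.72, adjusted p = 2.17e-06) and Esrra from 26.3 to 33.1 FPKM (adjusted p = 0.00109). Creb3l3, a liver transcription factor that induces Fgf21 with PPAR alpha, was at 3.47 to 4.78 FPKM at P0 and 0.0233 to 0.035 FPKM at P10 (log2 fold change -2.30), with no test independent of its filter. Of 8 PPAR alpha targets outside oxidation tested, 4 were lower and 4 higher, and Plin5, among the lower, passed the filter only through P0. Acot1, whose fragments near copies can share, fell from 9.67 to 1.9 FPKM and Ucp2 from 452 to 308 FPKM, while Vnn1 rose from 17.2 to 89.1 FPKM (log2 fold change 2.34, adjusted p = 6.75e-07) and Txnip from 209 to 259 FPKM (adjusted p = 0.0396).

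**Figure D3:**
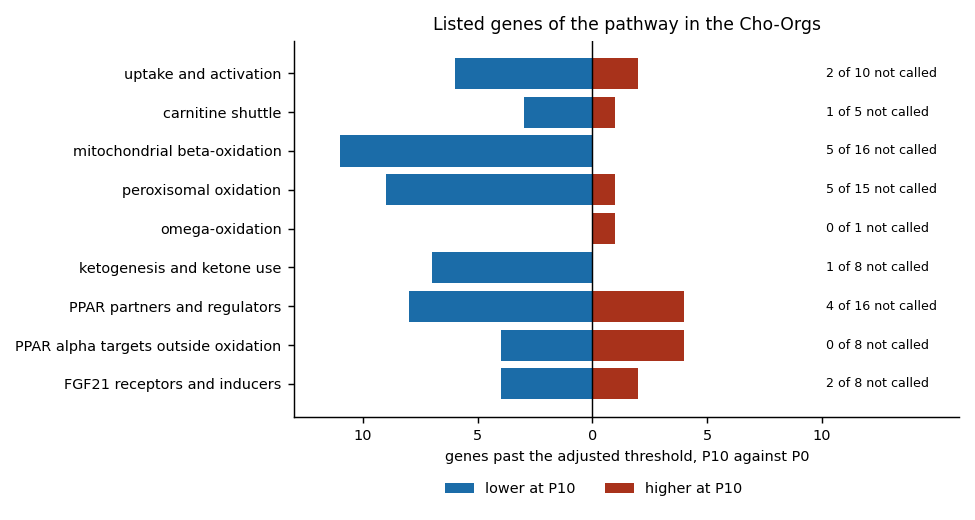
Number of genes of each of 9 lists that were lower (left) or higher (right) at P10 than at P0 in the Cho-Orgs, past the adjusted threshold, with the number not called at the right. Mitochondrial beta-oxidation had 11 lower and none higher, and PPAR alpha targets outside oxidation 4 in each direction.

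Of 8 receptors and inducers of FGF21 tested, 2 were higher and 4 lower at P10 than at P0. Atf4, the stress-responsive factor whose element is marked above, was at 85.4, 87.0 and 119 FPKM at P0, 183, 187 and 201 FPKM at P5 and 356, 361 and 372 FPKM at P10. Atf4 rose at each step, with log2 fold changes of 0.98 at P5 against P0 (SE 0.11, adjusted p = 5.37e-05) and 0.93 at P10 against P5 (SE 0.11, adjusted p = 6.53e-05). Fgf21 rose over the first of these steps and fell over the second, and a link between Atf4 and Fgf21 was not tested. Fgfr1 was at 6.32 FPKM at P0 and 0.0138 at P10 (log2 fold change -2.83), with the same limit, and Fgfr2 fell from 30.7 to 19.6 FPKM (adjusted p = 0.000139). The co-receptor Klb did not reach the filter, with 0.425 to 0.474 FPKM at P0 and 0.0328 to 0.0376 FPKM at P10.

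Of the 8 genes, 7 varied little across all 12 libraries of the hepatocyte table, and Fgf21 was near 0. None of the 7 tested passed in any of the 4 comparisons with limma, where 0.0091% of 10986 genes were called for P1 and 0.0091% for P5, both against Pri-Hep, 0% for P10 against Pri-Hep and 0% for P10 against P1. Unadjusted, 0, 2, 1 and 0 of the 7 genes had a p under 0.05 in limma, as had 911, 1184, 730 and 986 of all genes. The fit by limma-voom on recovered fragments also called none of the same 7 genes, with Fgf21 again not tested. It called 0.273%, 0.355%, 0% and 0.264% of all genes in the same 4 comparisons. The largest difference among the 7 was a log2 fold change of 0.19 and the SEs were 0.03 to 0.06.

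Acadl ranged from 90.9 to 101 FPKM with a median of 95, and Acadm from 32.6 to 35.2 with a median of 33.7. Cpt1a ranged from 25.5 to 29.6 FPKM with a median of 27.8, Hadha from 15.8 to 17.6 with a median of 16.7, and Cpt2 from 12.9 to 15.2 with a median of 14.2. The coefficient of variation over all 12 libraries was 2.36% for Acadm, 2.84% for Hadha, 3.28% for Acadl, 4.01% for Cpt1a and 4.96% for Cpt2. It was larger for Ehhadh, at 7.43%, and for Ppara, at 9.89%. No range overlapped that of a neighbour, so the order was the same in all libraries, with Ehhadh, Ppara and Fgf21 below. Over all genes with at least 20 summed fragments, counting error was not the whole of the difference between 2 libraries. Their mean chi-square per gene, which is 1 for sampling noise, was 1.90 to 3.04 within groups and 1.80 to 4.36 between groups. It was not computed for the genes named here alone.

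Ppara showed the largest difference. It was at 1.89, 1.90 and 1.84 FPKM in the libraries labelled Pri-Hep and at 2.30, 2.35 and 2.20 FPKM at P5, so these groups did not overlap, as was true in this direction of 7.7% of genes tested. The log2 fold change of 0.19 (SE 0.06) did not pass the limma test (adjusted p = 0.31). At P10 Ppara was at 1.97, 2.41 and 1.97 FPKM, again above all Pri-Hep libraries, and at P1 at 1.86, 2.00 and 2.00 FPKM. The log2 fold change of 0.11 at P10 against Pri-Hep (SE 0.06) did not pass the limma test (adjusted p = 0.768). The share of all genes with this pattern at P10 was not computed. The Ppara levels rest on 106 to 194 fragments per library.

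Ehhadh ranged from 7.08 to 9.35 FPKM over the 12 libraries, with means of 7.6 in the libraries labelled Pri-Hep and 7.63, 7.8 and 8.47 in Hep-Orgs of the passages P1, P5 and P10. The difference of 0.14 between P10 and Pri-Hep did not pass the test (SE 0.06, adjusted p = 0.75 by limma). Acadl was at 92.3, 92.5 and 94.7 FPKM at P5 and 95.1, 99.7 and 101 FPKM at P10, and Acadm at 32.6, 33 and 33.6 against 33.7, 33.9 and 34.8 FPKM. For both, all P10 libraries lay above all P5 libraries, as for 8.52% of genes tested in this table, whereas in the Cho-Orgs all P10 libraries lay below all P5 libraries, as for 36.8% of genes.

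Fgf21 was near the limit of detection in this table. No fragment was counted in any of the 3 libraries labelled Pri-Hep, which allows up to 3 fragments over the group, or 0.0612 FPKM. The 95% Poisson interval of that count reaches 3.69 fragments, or 0.0752 FPKM. The Hep-Orgs libraries had 1, 3 and 4 fragments at P1, 2, 1 and 4 at P5 and 1, 5 and 2 at P10. Every Hep-Orgs library thus held some Fgf21 and none of the Pri-Hep libraries did. This pattern was found in 4 of the 20509 genes above 0 in at least 1 library, or 0.0195%. These include genes at every level, so the share does not tell how common the pattern is among genes this near 0. The pooled counts of 8, 7 and 8 fragments had 95% Poisson intervals from 3.45, 2.81 and 3.45 upward, so the difference from 0 was at the edge of what this depth can show, and no fold is given. With all genes above 0 tested, the adjusted p was 0.761, 0.644 and 0.759 by limma for P1, P5 and P10 against Pri-Hep.

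**Figure D4:**
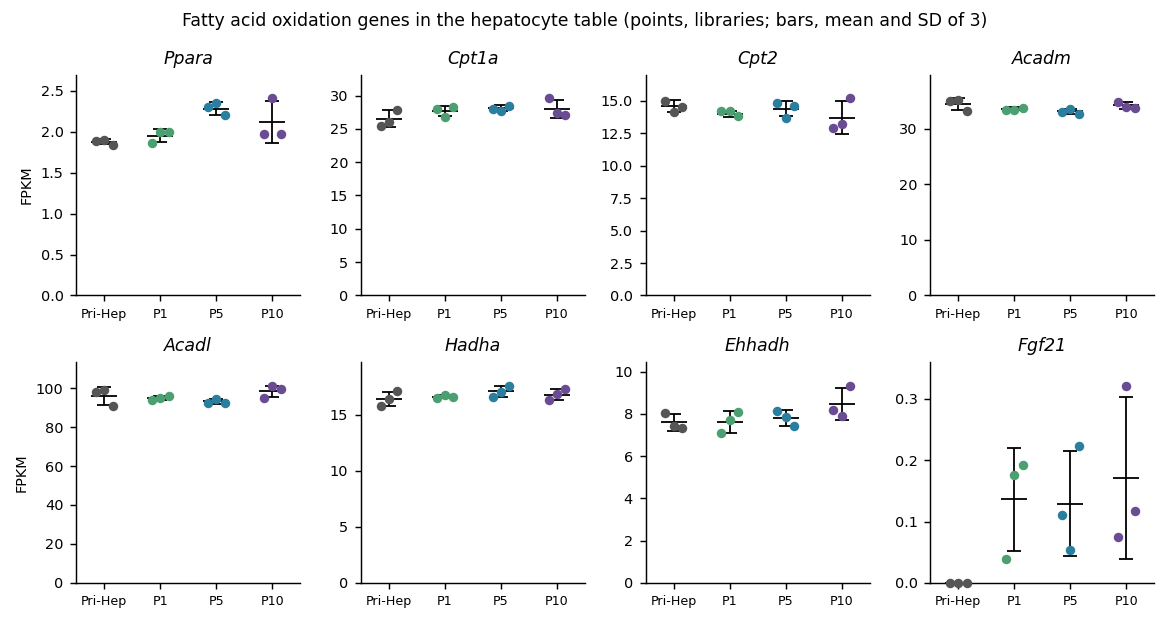
FPKM of the 8 genes in the 12 libraries of the hepatocyte table, with points for libraries and bars for the mean and SD of 3 libraries, each panel on its own axis from 0. The groups lie close together, apart from Ppara at P5 and P10, above all Pri-Hep libraries, and Fgf21, which is at 0 in the Pri-Hep libraries and at most 0.322 FPKM in the others.

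Of 87 listed genes tested in the hepatocyte table, none was called in any of the 4 comparisons, and their median log2 fold changes were 0.00 to 0.01. Atf4 was at 58.5 to 63.3 FPKM and Creb3l3 at 0.200 to 0.248 FPKM in group means.

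In the Smart-Seq libraries Ehhadh, Ppara and Fgf21 were lower in the round-like organoids, and the 5 mitochondrial genes were highest in the intermediate organoids. With 1 library per shape there is no test, and the ratios of FPKM carry 95% exact intervals of counting error only, from approximate fragment numbers. Past a 2-fold difference in FPKM + 1, 1 of 7 genes that passed the filter was higher in the grape-like than in the round-like library and 0 lower, where 12.9% of 12595 genes were higher and 8.82% lower. In the intermediate against the round-like library 2 of 7 were higher and 0 lower, against 3.85% and 2.54%. Between the grape-like and the intermediate library it was 0 in either direction, against 9.71% higher and 7.15% lower. Scaling mattered here: the median of all genes in the intermediate against the round-like library moved from -0.12 to 0.00 with median-ratio factors, the share of higher calls from 60.2% to 72.4%, and the number of the 7 genes past 2-fold from 2 to 3, with Cpt1a added.

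Ehhadh, Ppara and Fgf21 were lower in the round-like library than in both others. Ehhadh was at 23.7 FPKM in the grape-like, 23.8 in the intermediate and 5.69 in the round-like library, 4.17-fold (3.84 to 4.54) and 4.18-fold (3.84 to 4.55) above the last. Ppara was at 1.62, 2.24 and 0.381 FPKM in the same order, 4.25-fold (3.15 to 5.9) and 5.87-fold (4.39 to 8.09) above the round-like library. In FPKM + 1 the grape-like Ppara ratio was 0.92 in log2, just under 2-fold. Fgf21 was at 0.897 and 0.418 FPKM, about 34 and 16 fragments, and at 0 fragments in the round-like library. The exact 95% lower limits of its ratios to the round-like library were 8.78 for the grape-like and 3.85 for the intermediate library.

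The mitochondrial genes had smaller ratios, and were highest in the intermediate library. Cpt1a was at 22.2 FPKM in the grape-like, 35.6 in the intermediate and 18.6 in the round-like library, and Cpt2 at 13.5, 23.4 and 17.8 FPKM. Acadl was at 89.4, 144 and 96.2 FPKM, Acadm at 34.1, 42.3 and 35.7 FPKM and Hadha at 68.9, 96.9 and 72.8 FPKM. Intermediate over round-like, the ratios were 1.91 (1.83 to 2) for Cpt1a, 1.5 (1.46 to 1.55) for Acadl, 1.33 (1.3 to 1.36) for Hadha, 1.31 (1.23 to 1.4) for Cpt2 and 1.18 (1.13 to 1.24) for Acadm. The ratio of Hadha to Ehhadh was 2.91 in the grape-like, 4.08 in the intermediate and 12.8 in the round-like library.

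**Figure D5:**
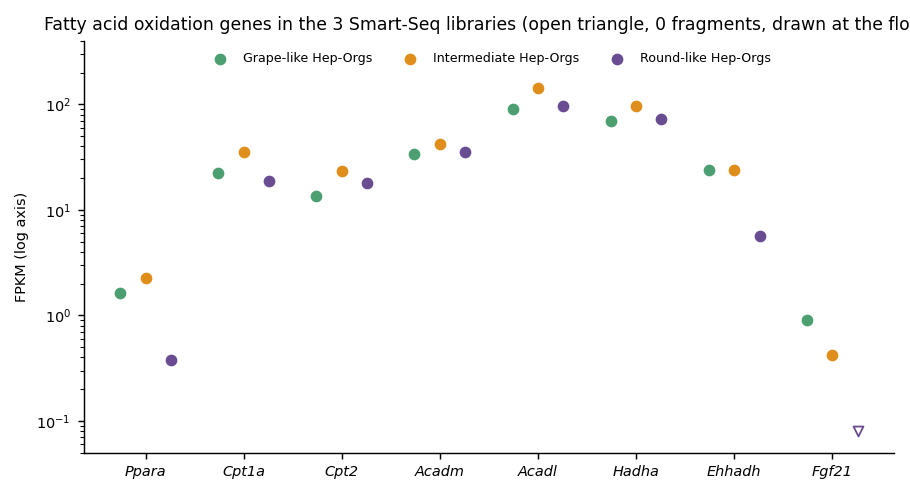
FPKM on a log axis of the 8 genes in the 3 Smart-Seq libraries, 1 per organoid shape, without replicates. Ppara and Ehhadh lie lowest in the round-like library, at 0.381 and 5.69 FPKM, and Fgf21 had 0 fragments there.

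The summed hepatocyte markers went with this split, at 5853 FPKM in the grape-like, 10252 in the intermediate and 1397 in the round-like library. Alb was the largest part, at 3649, 5729 and 565 FPKM. Past 2-fold, 7 of 10 were higher in the grape-like and 8 in the intermediate than in the round-like library. Hnf4a (22.9 against 36.5 FPKM) and Ttr (263 against 492 FPKM) were lower in the grape-like than in the round-like library. The cholangiocyte markers summed to 889, 3513 and 2889 FPKM in the same order, with 9 of 10 past 2-fold lower in the grape-like than in the round-like library. The macrophage markers summed to 10240, 2955 and 1631 FPKM, the stellate and mesenchymal markers to 1620, 417 and 347 FPKM and the endothelial markers to 166, 69.9 and 31.3 FPKM. Their part in the levels of the 8 genes was not tested. Of 98 listed genes of the pathway that passed the filter, 20 were past 2-fold higher and 4 lower in the grape-like than in the round-like library, against 12.9% and 8.82% of all genes. In the intermediate library it was 16 and 0, against 3.85% and 2.54%. From grape-like over intermediate to round-like, Fabp1 was at 590, 628 and 34.6 FPKM and Creb3l3 at 8.91, 16 and 0.923 FPKM. Atf4 was at like levels in all 3, at 114, 118 and 125 FPKM.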

How the data were processed

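Libraries were made from poly(A) RNA, and for the Smart-Seq samples from amplified cDNA. The deposited values are FPKM that the authors computed per library, after counting with featureCounts 2.0.3 on mm10 and with edgeR 3.40.2 among the tools in the submitters' processing notes. The aligner and the annotation are not given in the sources used here. In the hepatocyte table FPKM times listed length gave whole fragments in 100% of values (tolerance 0.01). The other tables list no lengths. Their library sizes were inferred from the value of 1 fragment at single-transcript genes of GENCODE M21, so fragment numbers there are approximate. Both the intervals and the floors are limited to counting error.

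The values used are not counts, so limma 3.58.1 (R 4.3.3, lmFit and eBayes with trend) was used on log2(FPKM + 1) in place of a count model, all groups of a table together, two-sided, with Benjamini-Hochberg adjustment over all genes with at least 1 FPKM in at least 3 libraries and a threshold of 0.05. Smart-Seq libraries were compared by ratios among genes with at least 1 FPKM in any of them. Other steps used Python 3.11.15 (scipy 1.17.1, pandas 2.3.3, numpy 2.4.6) and the plots matplotlib 3.10.9. The models were tested on simulated data.

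The 8 genes and the lists were chosen with earlier results of these data known. Named genes were the 8, the 2 highest in the Cho-Orgs and the 2 most changed from P0 to P10 among the called genes of each list, the marker genes a sentence needed and the 2 nearest profiles of each of the 8 tested. Cpt1c and Klb, the values of Atf4, Creb3l3 and Fabp1 outside the Cho-Orgs, and Hadhb were chosen after their values were seen. The Cho-Orgs libraries are titled M1 to M3 at each passage. Figure legends of the study name mice as the source of numbered libraries, and its methods name independent cultures. Whether replicates are separate mice or separate cultures is thus not settled by the sources, so p-values measure the spread between these libraries. Same-numbered libraries of different groups did not deviate together (median correlation -0.002 over 18 pairs in the hepatocyte table and -0.006 over 9 pairs in the cholangiocyte table), and no pairing was used. One gene that the rule names is not reported here.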

Additional observations from a re-analysis of the deposited data

Results flagged for a closer look

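Acadm and Acadl levels at P10 lay above those at P5 in the Hep-Orgs and below them in the Cho-Orgs, as labelled. No test of P10 against P5 was made in the Hep-Orgs, whose marker sums went against their label. For Acadm the log2 difference of the mean FPKM + 1 was 0.05 in the Hep-Orgs and -0.30 in the Cho-Orgs. For Acadl it was 0.08 in the Hep-Orgs and -0.52 in the Cho-Orgs. These were singled out because every P10 library lay above every P5 library in one kind of organoid and below in the other. The first was true of 8.52% of genes tested in the Hep-Orgs and the second of 36.8% in the Cho-Orgs. The difference between the 2 kinds was not tested, since the tables were normalized separately.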

How the results depend on the processing

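In the Cho-Orgs the number of the 8 genes called stayed within 1.5 times the reported one under every alternative run: another pseudocount (0.1), all genes above 0, a mean FPKM of at least 5 (under which Ehhadh and Fgf21 were not tested), fits of only the 2 groups compared or without the eBayes trend, rescaling to TPM or by median ratios, a replicate block, and each replicate left out. Without 1 replicate it was 4 to 6 at P5 against P0, 7 at P10 against P0 and 5 to 6 at P10 against P5. With the replicate block it was 6, 7 and 6, so that the block changed no call of the 8 genes there, and in the hepatocyte table it was 0 in each of the 4 comparisons. Single calls lost were Cpt2 and Acadl, as given above. Past 2-fold in the grape-like against the round-like library were 2 genes with a pseudocount of 0.1 and 2 with TPM, instead of 1, the added gene being Ppara.

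Directions turned only for differences near 0 that no fit called. With TPM, Acadm was at 0.00 at P5 against P0 in the Cho-Orgs and Ehhadh at -0.00 at P1 against Pri-Hep, where limma-voom also gave -0.00. In the fits without 1 replicate, P1 against Pri-Hep ranged from -0.06 to 0.01 for Acadl, from -0.00 to 0.04 for Hadha and from -0.06 to 0.09 for Ehhadh. P10 against Pri-Hep ranged from -0.03 to 0.01 for Acadm and from -0.01 to 0.08 for Acadl, and P10 against P1 from -0.01 to 0.05 for Cpt1a, from -0.11 to 0.02 for Cpt2 and from -0.01 to 0.03 for Hadha. The cause was not tested. Without replicates, the Smart-Seq values cannot show what varies between organoids of 1 shape.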
